A study of Homo sapiens with 12 samples.

Results

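The 10 keratin genes followed here through the RNA sequencing of ZR-75-1 cells were chosen by name: *KRT7*, *KRT8*, *KRT13*, *KRT15*, *KRT18*, *KRT19*, *KRT23*, *KRT80*, *KRT81* and *KRT86*. They are 10 of 60612 named rows of the count table and 10 of 54 keratin genes, and all 10 had counts in these cells. ZR-75-1 is an established oestrogen receptor-positive human breast cancer line. Isogenic clones had been made from it with Cas9 and a non-targeting guide RNA (sgControl) or a guide RNA against *RB1*, so the knockout is a clonal population and what separates it from sgControl cells includes whatever separates the clones. *RB1* encodes the retinoblastoma protein Rb, the cell cycle brake that CDK4 and CDK6 phosphorylate. Both genotypes were kept in RPMI-1640 with 10% fetal bovine serum and treated for 5 days with 500 nM abemaciclib, a CDK4/6 inhibitor, or with an equal volume of DMSO. This gave 4 groups of 3 replicates: sgControl in DMSO, sgControl in abemaciclib, *RB1* knockout in DMSO and *RB1* knockout in abemaciclib.

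Keratins are the intermediate filament proteins of epithelia. A filament is built from obligate pairs of a type I (acidic) and a type II (basic) chain, and the chains that a cell makes follow its type and its state of differentiation. In breast epithelium, luminal cells carry the simple keratins K8 and K18 together with K19 and K7, whereas basal and myoepithelial cells carry K5, K14 and K17. Of the genes followed here, *KRT13*, *KRT15*, *KRT18*, *KRT19* and *KRT23* encode type I chains, and *KRT7*, *KRT8*, *KRT80*, *KRT81* and *KRT86* encode type II chains.

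The libraries held 39907318 to 81636393 counts. *RB1* had 29 to 63 counts in the knockout libraries and 2090 to 7543 in the sgControl libraries, so no library went against its label. Luminal identity was checked with *ESR1*, *GATA3*, *FOXA1*, *EPCAM*, *CDH1* and *MUC1*, which all had counts in every group and whose summed normalized count, the count divided by the size factor of the library, was between 193865 and 316655. *CDH1* and *MUC1* made up most of that sum, and single genes differed between groups. *ESR1* had mean normalized counts of 12053 and 18134 in sgControl cells and 8359 and 6386 in the knockout, in DMSO and abemaciclib. In the DESeq2 model described below, 4 of the 6 were lower in the knockout in abemaciclib, against 27.4% of all genes. *CDH1* was higher there, and in DMSO 3 were higher and 3 lower. Markers of other cells were low but not absent. The 8 basal or myoepithelial genes summed to 891 to 1053 in sgControl libraries given DMSO and 775 to 865 in abemaciclib, and to 1511 to 1646 and 1289 to 1378 in the knockout. Nearly all of this came from *ACTA2*, *OXTR*, *MYLK* and *KRT17*, while *KRT5*, *KRT14*, *TP63* and *CNN1* had 15, 12, 18 and 1 counts in all 12 libraries together. The 6 fibroblast genes summed to 2122 to 2418 and 2889 to 3102 in sgControl libraries, and to 1906 to 2072 and 2595 to 2706 in the knockout, in DMSO and abemaciclib. Most of it was *COL1A1*, with 3 counts of *COL1A2* and 1 of *COL3A1* in all, but *LUM* and *DCN* had mean normalized counts of 3.26 and 3.21 in sgControl cells given DMSO and 49.2 and 20.5 in abemaciclib. Of the immune genes *CD3E* had no count and *PTPRC* and *CD68* had 17 and 9, whereas *LYZ* had a mean normalized count of 24.3 in DMSO and 505 in abemaciclib in sgControl cells. The part of other cells in the results was not tested. Replicate 1 of sgControl in DMSO stood apart: it differed from the other replicates of its group by a chi-square of 48.2 and 103.8 per gene, against 17.9 between those others. It also held the highest *KRT8*, *KRT18*, *KRT19* and *KRT7* of its group.

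The type II genes and *KRT18* lie together on chromosome 12, and the other type I genes on chromosome 17 (GRCh38, GENCODE release 44 annotation). *KRT8* (chromosome 12, 52897187 to 52949954, minus strand) and *KRT18* (52948871 to 52952906, plus strand) stand head to head. Some annotated transcripts of *KRT8* start inside *KRT18*, and 525 exon bases are common to both on opposite strands, 7.63% of the *KRT8* exons and 17.1% of those of *KRT18*. On chromosome 17 *KRT15* (41513745 to 41522529, minus strand) and *KRT19* (41523617 to 41528308, minus strand) are 1087 bases apart, and *KRT13* (41500981 to 41505705, minus strand) lies 8039 bases from *KRT15*. *KRT23* is at 40922700 to 40937646 on the same strand. *KRT80* (52168996 to 52192014, minus strand), *KRT7* (52232520 to 52252186, plus strand), *KRT86* (52249300 to 52309163, plus strand) and *KRT81* (52285913 to 52291534, minus strand) follow each other on chromosome 12, and *KRT81* lies wholly within the annotated span of *KRT86*. Windows of 100 bases of *KRT81* were found in another gene for 30.3% of the transcript, nearly always *KRT86* (29.4%), and 27.6% of the *KRT86* windows were found elsewhere, so the split of reads between these hair keratin genes is uncertain. For *KRT8* the share was 7.12%, most often in the pseudogene *KRT8P3*, and it was 0 for the other 7 genes. How the authors counted by strand and how they treated reads with several positions is not stated.

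The keratin transcripts of these cells were almost entirely those of *KRT19*, *KRT8* and *KRT18*. Levels of different genes were set side by side as normalized counts per kb of exon, and the share of each gene was taken of the summed level of the 10. In sgControl cells in DMSO the 3 genes made up 99.1% ± 0.10 (SD, n = 3) of the sum. *KRT19* held 53.4% ± 0.36, *KRT8* 24.1% ± 0.13 and *KRT18* 21.5% ± 0.40. Per kb, *KRT19* stood at 98770 ± 17404 normalized counts, *KRT8* at 44508 ± 7513 and *KRT18* at 39838 ± 7193. The latter 2 did not differ beyond their spread between libraries, although within each of the 12 libraries *KRT18* was below *KRT8*, per kb as well as undivided. Far below them among the 10 followed *KRT80* (707 ± 16.8 per kb) and *KRT81* (691 ± 68.0), which did not differ beyond their spread. Then came *KRT7* (236 ± 41.6), *KRT15* (36.3 ± 1.65) and *KRT86* (22.6 ± 6.74). *KRT10*, which is outside the 10 and so outside this sum, stood at 1248 ± 194 per kb, above *KRT80* and *KRT81*. *KRT23* (1.28 ± 0.67) and *KRT13* (1.05 ± 1.13) were at a few reads per library and were not distinguishable. With the length of the longest transcript in place of all exons, the shares of *KRT19*, *KRT8* and *KRT18* were 49.7%, 32.1% and 17.5%. The sources name different library kits, 1 of which reads the 3′ ends of transcripts and would not call for a division by length. How levels of different genes rank therefore depends on the length used, whereas the fold changes of single genes do not. Without the division *KRT8* led in this group, with a mean of 306261 ± 51697 normalized counts, before *KRT19* with 230726 ± 40656 and *KRT18* with 122264 ± 22074.

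The make-up of this keratin pool differed between treatments, in opposite directions in the 2 genotypes. In sgControl cells in abemaciclib the share of *KRT19* was 73.6% ± 0.65, with 14.5% ± 0.45 *KRT8* and 11.3% ± 0.24 *KRT18*. *RB1*-knockout cells in DMSO held 48.1% ± 0.29 *KRT19*, 25.1% ± 0.33 *KRT8* and 22.7% ± 0.17 *KRT18*. In abemaciclib they held 41.4% ± 0.21 *KRT19*, 29.5% ± 0.26 *KRT8* and 26.7% ± 0.15 *KRT18*. The libraries of these groups did not overlap for any of the 3 genes between treatments. The 7 lesser genes together held 0.929% ± 0.10 and 0.636% ± 0.04 of the pool in sgControl cells, and 4.12% ± 0.05 and 2.33% ± 0.15 in the knockout, where *KRT81* alone held 3.01% ± 0.02 in DMSO and 1.23% ± 0.09 in abemaciclib. Per kb, *KRT15* stood at 613 ± 82.4 in sgControl cells in abemaciclib, and *KRT81* at 6325 ± 301 in the knockout in DMSO and 2794 ± 134 in abemaciclib.

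**Figure D1:**
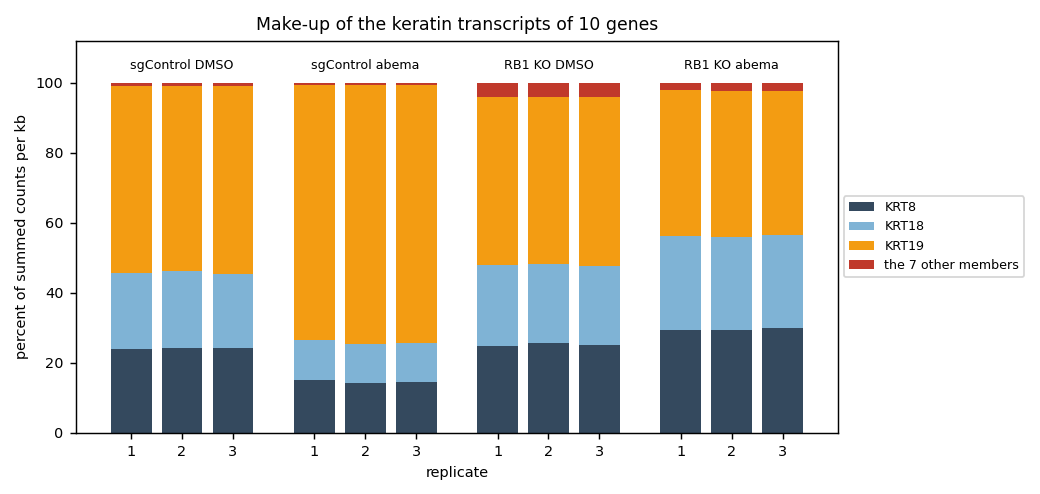
Share of each keratin gene in the summed level (counts per kb of exon) of the 10 genes, in percent, with 1 bar for each of the 12 libraries. *KRT19* fills 53.4% of the pool on average in sgControl cells in DMSO, 73.6% in sgControl cells in abemaciclib, 48.1% in the knockout in DMSO and 41.4% in the knockout in abemaciclib, and the 3 bars of each group are nearly alike.

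Taken as a share of all counts of a library, the 10 genes held 1.21% ± 0.14 in sgControl cells in DMSO, 1.05% ± 0.04 in abemaciclib, and 1.39% ± 0.05 and 1.61% ± 0.03 in the knockout. The difference within sgControl cells was −0.161 percentage points (exact two-sided permutation test, p = 0.2, n = 3 and 3). It was 0.222 points in the knockout and 0.557 points between genotypes in abemaciclib (exact permutation p = 0.1 for both), where the libraries did not overlap. With 3 libraries against 3, 0.1 is the smallest p such a test can give. Mitochondrial genes held 3.49% ± 0.60 of the counts of sgControl cells in DMSO and 7.73% ± 0.70 in abemaciclib, beside 3.98% ± 0.18 and 6.13% ± 1.09 in the knockout, and their part in these shares was tested only by leaving them out. With mitochondrial counts left out of the total, an alternative chosen after the data were seen, the 3 differences were −0.117, 0.270 and 0.574 points.

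The first comparison asked what CDK4/6 inhibition does to keratin genes where *RB1* is intact. All 10 genes were tested in a DESeq2 model fitted across all genes and 12 libraries (Wald test, Benjamini–Hochberg adjustment), with a call at an adjusted p-value below 0.05. In sgControl cells 9 of the 10 were called, 4 higher and 5 lower, against 49.8% of the 22723 genes tested. The 4 that rose were the type I genes *KRT13*, *KRT15*, *KRT19* and *KRT23*, and the 5 that fell were the type I gene *KRT18* and the type II genes *KRT7*, *KRT8*, *KRT80* and *KRT81*. For 9 genes the libraries of the 2 treatments did not overlap, which held for 55.8% of all genes tested. In the knockout this was so for 6 genes, against 49.4%. In *RB1*-knockout cells 6 of 10 were called, against 30.0% of 18546 genes (14.9% higher and 15.1% lower): *KRT8*, *KRT15*, *KRT18* and *KRT80* rose, and *KRT7* and *KRT81* fell. The difference between the responses, tested as an interaction, was called for 7 of 10, against 41.4% of 20932 genes. It was higher in the knockout for 4 (*KRT8*, *KRT18*, *KRT80* and *KRT81*), against 21.1% of genes, and lower for 3 (*KRT15*, *KRT19* and *KRT23*), against 20.3%. These shares lie above the background over all genes tested, but the 10 genes are few and were named with the earlier results known. That background also holds genes with few reads. In the fit of genes with at least 10 counts in 3 libraries, 11337 of 17060 were called in sgControl cells. In the same fit 5775 were called in the knockout and 8912 for the difference, in each case a larger part than over all genes tested. In a bulk culture, a change in the share of cells that make a keratin and a change in the RNA made per cell cannot be told apart.

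*KRT8*, the type II chain of simple epithelia, fell with abemaciclib in sgControl cells and rose in the knockout. Its normalized counts were 360903, 299754 and 258125 in sgControl cells given DMSO and 222752, 187330 and 198531 in abemaciclib. In the knockout they were 347608, 390841 and 350569 in DMSO and 478573, 446295 and 464483 in abemaciclib. Every treated library was thus below every untreated library in sgControl cells and above every untreated library in the knockout. The log2 fold change was −0.59 ± 0.10 (SE, adjusted p = 4.38e-08 in DESeq2) in sgControl cells and 0.35 ± 0.10 (adjusted p = 0.00386) in the knockout, and the difference between them was 0.95 ± 0.15 (adjusted p = 8.98e-10). Without replicate 1 of sgControl in DMSO the response in sgControl cells was −0.46, with an adjusted p of 4.22e-09 in the same DESeq2 model, and the difference was 0.81.

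*KRT18*, the type I partner of K8, followed the same course. Its normalized counts were 144587, 121757 and 100448 in sgControl cells given DMSO and 76616, 66290 and 68161 in abemaciclib. The knockout had 142540, 154982 and 141011 in DMSO and 195440, 180025 and 185471 in abemaciclib. Again the treatments did not overlap within either genotype, with treated libraries lower in sgControl cells and higher in the knockout. The log2 fold changes were −0.80 ± 0.11 (SE, DESeq2 adjusted p = 2.39e-13) and 0.36 ± 0.11 (adjusted p = 0.00406), with a difference of 1.15 ± 0.15 (adjusted p = 1.13e-13). Without replicate 1 of sgControl in DMSO the sgControl response was −0.66 and the difference 1.02. Across the 12 libraries the log2 levels of *KRT8* and *KRT18* had a Pearson correlation of 0.996, which describes these 4 groups of libraries and carries no test.

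*KRT19*, a short type I chain that pairs with K8 or K7 in luminal cells, moved the other way. It had 274349, 223937 and 193893 normalized counts in sgControl cells given DMSO and 367567, 334304 and 344536 in abemaciclib. The lowest treated library was thus above the highest untreated one. In the knockout the counts were 228038, 248498 and 230199 in DMSO and 229726, 214004 and 217573 in abemaciclib, where the treatments overlapped. The response was 0.60 ± 0.10 (SE, DESeq2 adjusted p = 7.42e-09) in sgControl cells, and 0.74 without replicate 1 of the DMSO group. In the knockout it was −0.10 ± 0.10 (adjusted p = 0.522), with a 95% interval of −0.29 to 0.10, and it passed when only the 2 knockout groups were fitted (−0.10, adjusted p = 0.0378). The difference between the responses was −0.69 ± 0.14 (adjusted p = 3.97e-06), and −0.83 without replicate 1 of sgControl in DMSO.

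**Figure D2:**
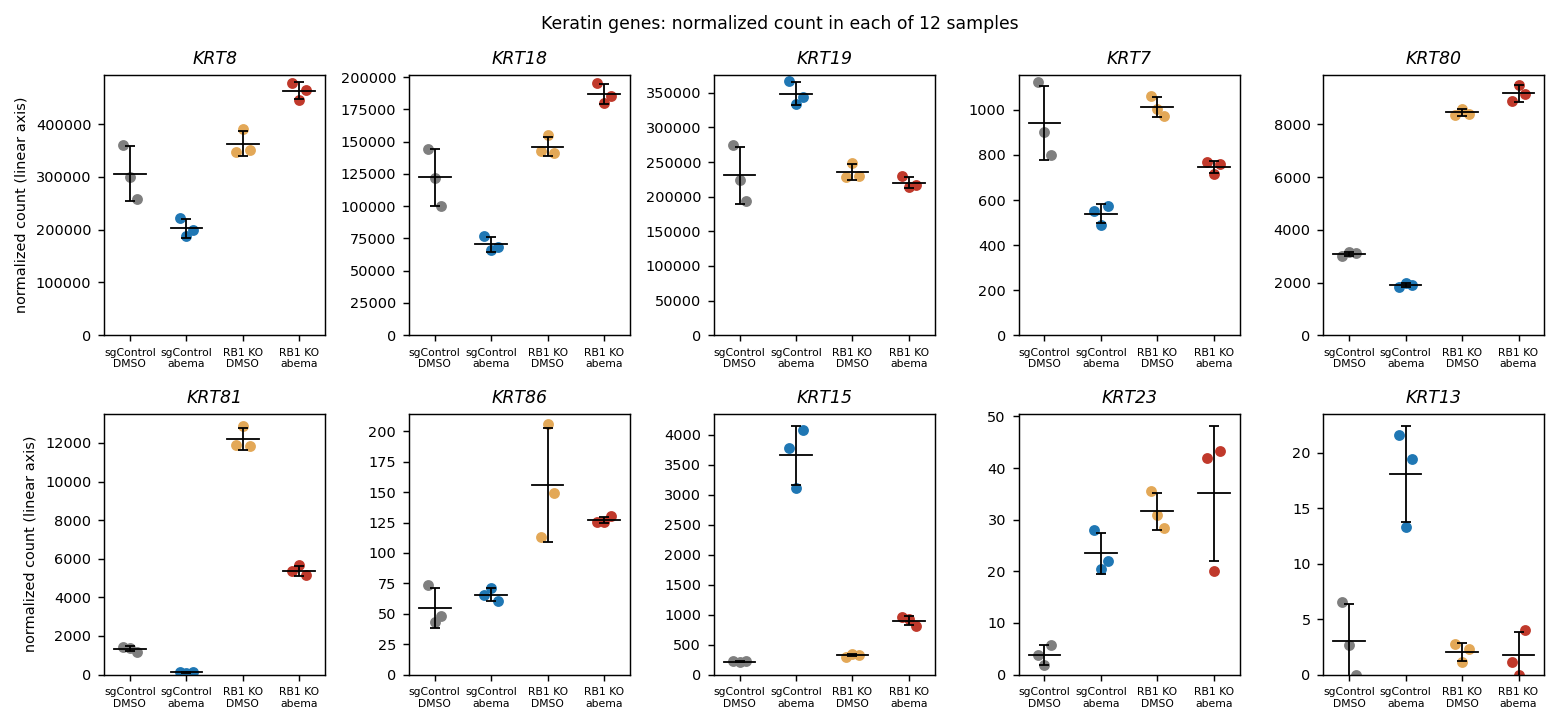
Normalized counts (linear axes starting at 0) of the 10 keratin genes in each of the 12 libraries, with the mean and SD of 3 replicates. *KRT8* and *KRT18* sit lowest in sgControl cells in abemaciclib and highest in the knockout in abemaciclib, *KRT19* and *KRT15* sit highest in sgControl cells in abemaciclib, and *KRT81* is highest in the knockout in DMSO, between 11839 and 12872.

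Because a ratio of 2 genes within a library does not depend on how libraries are scaled, the pairs were also compared as ratios of counts per kb. The level of such a ratio depends on the length by which counts are divided, whereas for a pair of genes its log2 difference between groups does not. *KRT18* stood at 0.894 ± 0.019 of *KRT8* in sgControl cells given DMSO and at 0.778 ± 0.013 in abemaciclib. In the knockout the ratio was 0.903 ± 0.015 in DMSO and 0.905 ± 0.010 in abemaciclib. Without division by length, an alternative chosen after the data were seen, it was 0.399 ± 0.0087 and 0.347 ± 0.0059 in sgControl cells and 0.403 ± 0.0068 and 0.404 ± 0.0045 in the knockout. In sgControl cells the log2 ratio in abemaciclib differed by −0.20 from that in DMSO and the libraries did not overlap (exact permutation p = 0.1, adjusted 0.1, the smallest possible). In the knockout it differed by 0.003 (exact permutation p = 0.9, adjusted 0.9).

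The ratio of *KRT19* to *KRT8* in abemaciclib was 2.29 times that in DMSO in sgControl cells and 0.733 times that in DMSO in the knockout. In sgControl cells it was 2.24, 2.20 and 2.21 in DMSO and 4.86, 5.26 and 5.11 in abemaciclib. In the knockout it was 1.93, 1.87 and 1.93 in DMSO and 1.41, 1.41 and 1.38 in abemaciclib. The spread within each group was small beside these differences, and no treated library overlapped an untreated one. On the log2 scale the differences were 1.19 and −0.45 (exact permutation p = 0.1 for each, adjusted 0.1 and 0.12 over 6 ratios). The ratio of *KRT19* to *KRT18* differed by 1.39 and −0.45, and the ratio of the summed type I to the summed type II genes, which *KRT19* dominates, by 0.94 and −0.18, with the same p-values. The ratio of these sums was 3.00 ± 0.04 in sgControl cells in DMSO, 5.75 ± 0.19 in abemaciclib, 2.42 ± 0.03 in the knockout in DMSO and 2.15 ± 0.03 in abemaciclib. Without division by length it was 1.13 ± 0.012, 2.06 ± 0.069, 0.994 ± 0.015 and 0.853 ± 0.011 in these groups, so which type prevailed depended on the length used, and the ratio of *KRT19* to *KRT8* was 0.753 ± 0.0067, 1.72 ± 0.068, 0.649 ± 0.012 and 0.476 ± 0.0066. The differences between the 2 responses were −1.64 for *KRT19* to *KRT8*, −1.85 for *KRT19* to *KRT18* and 0.20 for *KRT18* to *KRT8*. None passed when genotype labels were permuted within treatment (exact permutation, 400 assignments, p = 0.1, 0.1 and 0.075, each adjusted to 0.12). This permutation also mixes in the difference between genotypes, which had the same sign in both treatments for each of these ratios. Knockout against sgControl, it was −0.21 in DMSO and −1.86 in abemaciclib for *KRT19* to *KRT8*. It was −0.23 and −2.07 for *KRT19* to *KRT18*, and 0.02 and 0.22 for *KRT18* to *KRT8*. The p-values could then not fall below those given, however large the difference between the responses, so this test cannot decide the question.

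**Figure D3:**
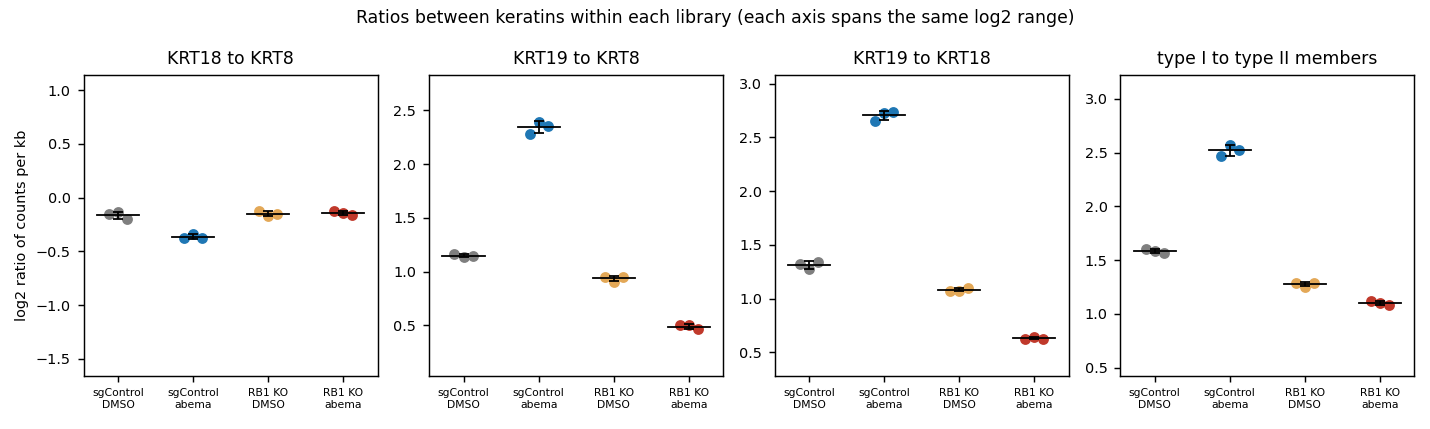
Log2 ratios of counts per kb between keratin genes within each of the 12 libraries, with mean and SD of 3 replicates; every panel spans the same log2 range. The *KRT18* to *KRT8* ratio lies between −0.12 and −0.38 throughout, whereas the ratio of *KRT19* to *KRT8* averages 1.15, 2.34, 0.94 and 0.49 in the 4 groups from left to right.

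*KRT7*, another type II chain of luminal and ductal epithelium, fell in both genotypes. Normalized counts were 1125, 900 and 801 in sgControl cells given DMSO and 550, 491 and 573 in abemaciclib. The knockout had 1060, 1006 and 972 in DMSO and 768, 714 and 759 in abemaciclib. Treated libraries were below untreated libraries in both. The log2 fold changes were −0.81 ± 0.12 (SE, DESeq2 adjusted p = 1.43e-11) and −0.44 ± 0.12 (adjusted p = 0.000917), or −0.66 in sgControl cells without replicate 1 of the DMSO group. The difference of 0.37 ± 0.16 did not pass (adjusted p = 0.0577) but passed in edgeR (adjusted p = 0.0447), with total-count scaling (adjusted p = 0.00132), with a count minimum for genes (adjusted p = 0.0427) and with the replicate number as a block (adjusted p = 0.0430), as well as without replicate 3 of sgControl in DMSO (0.48, adjusted p = 0.00354) or in abemaciclib (0.41, adjusted p = 0.0464). Without replicate 1 of sgControl in DMSO it was 0.22 (adjusted p = 0.139). *KRT7* shares 282 exon bases with the antisense gene *KRT7-AS*. The log2 ratio of *KRT7* to *KRT8* in abemaciclib differed from that in DMSO by −0.21 in sgControl cells and by −0.79 in the knockout (exact permutation p = 0.1 for each, adjusted 0.1 and 0.12).

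*KRT80*, which encodes a type II chain found in many epithelia, fell in sgControl cells and differed little between treatments in the knockout. It had 3002, 3144 and 3106 normalized counts in sgControl cells given DMSO and 1841, 1982 and 1902 in abemaciclib. The knockout had 8365, 8603 and 8399 in DMSO and 8869, 9509 and 9161 in abemaciclib. The knockout libraries all stood above the sgControl libraries, in both treatments. The response was −0.69 ± 0.05 (SE, DESeq2 adjusted p = 2.44e-41) in sgControl cells and 0.12 ± 0.05 (adjusted p = 0.0410) in the knockout, with a difference of 0.81 ± 0.07 (adjusted p = 2.36e-30). The small rise in the knockout lost its call in edgeR (adjusted p = 0.0965), with total-count scaling (0.193) and without independent filtering (0.0711). It also lost it in 7 of the 12 fits that left out 1 library, which were those without sgControl in DMSO replicate 2, sgControl in abemaciclib replicate 3, any knockout library in DMSO, or knockout in abemaciclib replicate 2 or 3, with adjusted p-values of 0.0514 to 0.219 and log2 fold changes of 0.09 to 0.13.

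*KRT81*, a type II hair keratin, had the largest decrease of the 10. Its normalized counts were 1447, 1362 and 1189 in sgControl cells given DMSO and 127, 104 and 137 in abemaciclib. In the knockout they were 11893, 12872 and 11839 in DMSO and 5353, 5664 and 5150 in abemaciclib. The 4 groups did not overlap. The fall was −3.44 ± 0.11 (SE, DESeq2 adjusted p = 4.42e-214) in sgControl cells, 0.0921 of the untreated level, and −1.18 ± 0.08 (adjusted p = 3.41e-46) in the knockout, 0.442 of the untreated level, and the difference was 2.26 ± 0.14 (adjusted p = 2.39e-60).

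*KRT86*, the hair keratin gene that shares much of its sequence with *KRT81*, did not follow it. Counts were 79, 49 and 76 in sgControl cells given DMSO and 61, 80 and 69 in abemaciclib, and 83, 187 and 131 in the knockout in DMSO and 111, 119 and 129 in abemaciclib. The treatments overlapped in both genotypes after normalization. The log2 fold changes of 0.27 ± 0.25 (SE, adjusted p = 0.394) and −0.30 ± 0.23 (adjusted p = 0.356) did not pass in DESeq2, with 95% intervals of −0.22 to 0.76 and −0.76 to 0.15. The value in sgControl cells was 0.52 (adjusted p = 0.0796) without replicate 1, 0.13 without replicate 2 and 0.17 without replicate 3 of the DMSO group, and that in the knockout was −0.48 without replicate 1 and −0.05 without replicate 2 of its DMSO group. The difference of −0.57 ± 0.34 (adjusted p = 0.176) passed only without replicate 1 of sgControl in DMSO, where it was −0.83 (adjusted p = 0.0306). The ratio of *KRT81* to *KRT86* per kb was 31.9 ± 7.47 in sgControl cells given DMSO and 2.37 ± 0.50 in abemaciclib, and 103 ± 26.8 and 53.4 ± 3.53 in the knockout. The log2 ratio in abemaciclib was −3.74 against that in DMSO in sgControl cells and −0.92 in the knockout, with no overlap of libraries (exact permutation p = 0.1 for each, adjusted 0.1 and 0.12).

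*KRT15*, a type I chain of basal layers and of stem and progenitor cells in stratified epithelia, had the largest increase. It had 220, 205 and 224 normalized counts in sgControl cells given DMSO and 3785, 3115 and 4074 in abemaciclib. The knockout had 299, 335 and 326 in DMSO and 961, 920 and 815 in abemaciclib. Treated libraries were above untreated libraries in both genotypes, and in abemaciclib sgControl libraries were above those of the knockout. The log2 fold change was 4.08 ± 0.11 (SE, DESeq2 adjusted p = 1.86e-287), 16.9-fold, in sgControl cells and 1.49 ± 0.11 (adjusted p = 6.04e-36), 2.80-fold, in the knockout, with a difference of −2.59 ± 0.16 (adjusted p = 7.87e-57). Of the 8 basal or myoepithelial marker genes 7 were tested in sgControl cells, where *OXTR* rose (1.29) and *KRT17* (−4.11), *ACTA2* (−2.08) and *MYLK* (−2.10) fell, against 49.8% of all genes called. Of the 6 fibroblast genes 4 were tested there, and *COL1A1*, *LUM* and *DCN* rose, by 0.37, 3.96 and 2.64 on the log2 scale. Whether these genes bear on the *KRT15* values was not tested.

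*KRT23* and *KRT13*, type I genes of other epithelia, were near the limit of detection. *KRT23* had 4, 2 and 9 counts in sgControl cells given DMSO and 26, 23 and 25 in abemaciclib, and 26, 28 and 25 in the knockout in DMSO and 37, 19 and 43 in abemaciclib. The untreated sgControl libraries were thus the lowest, and the knockout groups overlapped. The response was 2.59 ± 0.52 (SE, DESeq2 adjusted p = 2.50e-06) in sgControl cells and 0.15 ± 0.39 (adjusted p = 0.820) in the knockout, with a difference of −2.43 ± 0.65 (adjusted p = 0.000656). *KRT13* had 7, 3 and 0 counts in sgControl cells given DMSO and 20, 15 and 22 in abemaciclib. In the knockout it had 2, 1 and 2 counts in DMSO and 1, 0 and 4 in abemaciclib, so it was detected above a few counts in sgControl cells in abemaciclib alone. Its response in sgControl cells was 2.64 ± 0.89 (adjusted p = 0.00725). It was 3.94 (adjusted p = 0.00118) without replicate 1 of sgControl in DMSO and 1.98 (adjusted p = 0.0401) without replicate 3 of that group, and the call was lost without replicate 1 of sgControl in abemaciclib (2.48, adjusted p = 0.0544). In the knockout the value was −0.20 ± 1.18 (adjusted p = 0.933), and the difference of −2.84 ± 1.48 did not pass (adjusted p = 0.116) except without replicate 1 of sgControl in DMSO (−4.13, adjusted p = 0.0240).

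**Figure D4:**
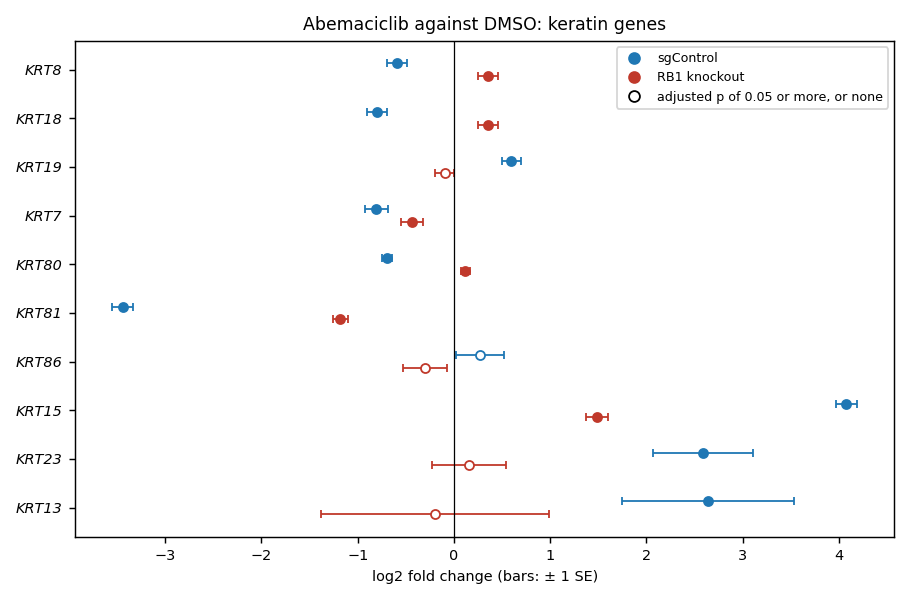
Log2 fold change of abemaciclib against DMSO for the 10 keratin genes in sgControl (blue) and *RB1*-knockout cells (red), with 1 SE on each side; open points did not pass the threshold. *KRT8*, *KRT18* and *KRT80* lie on opposite sides of 0 in the 2 genotypes, with a call in each. *KRT13* and *KRT19* do so with an open point in the knockout, and *KRT86* with open points in both. *KRT7* and *KRT81* are below and *KRT15* above 0 in both, and so is *KRT23*, with an open point in the knockout.

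The genotypes were then compared within each treatment, which asks how keratin genes stand without *RB1*. These comparisons use the same libraries as the responses above. In DMSO 7 of the 9 genes with an adjusted p-value were called, all higher in the knockout, against 37.4% of 16755 genes (19.2% higher and 18.2% lower), and *KRT13* was left without one by DESeq2's filter on low counts. In abemaciclib 9 of 10 were called, against 55.9% of 21529 genes (28.5% higher and 27.4% lower): *KRT7*, *KRT8*, *KRT18*, *KRT80*, *KRT81* and *KRT86* were higher in the knockout, and *KRT13*, *KRT15* and *KRT19* lower. Of the 17060 genes with at least 10 counts in 3 libraries, 6431 were called in DMSO and 11752 in abemaciclib. The libraries of the genotypes did not overlap for 5 of the 10 genes in DMSO, against 46.3% of all genes tested. In abemaciclib they did not overlap for 9 of the 10, against 65.7%. The median log2 fold change of the 10 genes in abemaciclib was 0.77, and that of all genes tested 0.02.

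The luminal genes stood close together in the untreated genotypes. In DMSO *KRT8* was 0.25 ± 0.10 (SE) and *KRT18* 0.26 ± 0.11 higher in the knockout on the log2 scale, with DESeq2 adjusted p-values of 0.0488 and 0.0403, and the libraries of the genotypes overlapped. Both calls were lost in edgeR (adjusted p = 0.0828 and 0.0627), without independent filtering (0.0920 and 0.0763) and with only the groups compared (0.114 and 0.105). *KRT8* kept its call in 1 and *KRT18* in 3 of the 12 fits that left out 1 library. Without replicate 1 of sgControl in DMSO the values were 0.38 (adjusted p = 4.68e-06) and 0.39 (adjusted p = 2.36e-06), and without replicate 3 of that group they were 0.13 each (adjusted p = 0.260 and 0.228). In all 12 libraries *KRT19* (0.03 ± 0.10, adjusted p = 0.848, 95% interval −0.16 to 0.22) and *KRT7* (0.11 ± 0.11, adjusted p = 0.502, 95% interval −0.12 to 0.33) did not pass. Without replicate 1 of sgControl in DMSO both did, at 0.17 (adjusted p = 0.0223) and 0.25 (adjusted p = 0.0165).

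In abemaciclib the luminal genes stood apart. *KRT8* was 1.19 ± 0.10 (SE, DESeq2 adjusted p = 1.68e-29) and *KRT18* 1.41 ± 0.11 (adjusted p = 1.07e-39) higher in the knockout, which is 2.28-fold and 2.66-fold. *KRT7* was 0.47 ± 0.12 higher (adjusted p = 0.000140), and *KRT19* was lower, by a log2 fold change of −0.66 ± 0.10 (adjusted p = 9.46e-11), at 0.632 of the sgControl level. The libraries of the genotypes did not overlap for any of these 4 genes, and neither did those of 65.7% of all genes tested. These calls held in all 12 fits that left out 1 library.

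The type II genes outside the luminal set were higher in the knockout whatever the treatment. *KRT81* differed by 3.20 ± 0.08 (SE) in DMSO, 9.17-fold, and by 5.46 ± 0.11 in abemaciclib, where sgControl cells held 0.0227 of the knockout level. *KRT80* differed by 1.45 ± 0.05 and 2.27 ± 0.05, which is 2.74-fold and 4.81-fold. The adjusted p-values of DESeq2 were 2.01e-197 for *KRT80* in DMSO and too small to be represented for the others. *KRT86* differed by 1.52 ± 0.24 (adjusted p = 3.63e-09) and 0.95 ± 0.24 (adjusted p = 0.000218). Leaving out any 1 library kept all these calls. Of the *KRT86* windows 25% were found in *KRT81*, whose level in the knockout was far higher. The part of misassigned reads in the *KRT86* differences was not tested.

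The lesser type I genes divided by treatment. *KRT15* was 0.57 ± 0.12 (SE, DESeq2 adjusted p = 2.80e-05) higher in the knockout in DMSO and lower in abemaciclib, with a log2 fold change of −2.03 ± 0.10 (adjusted p = 3.77e-83). *KRT23* was 3.02 ± 0.52 higher in DMSO (adjusted p = 7.33e-08), 8.11-fold, and in abemaciclib differed by 0.59 ± 0.39 (adjusted p = 0.196). *KRT13* was lower in abemaciclib, at −3.37 ± 1.01 (adjusted p = 0.00203), which became −5.04 (adjusted p = 0.00561) without replicate 3 and −2.78 (adjusted p = 0.0167) without replicate 2 of the knockout in abemaciclib.

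**Figure D5:**
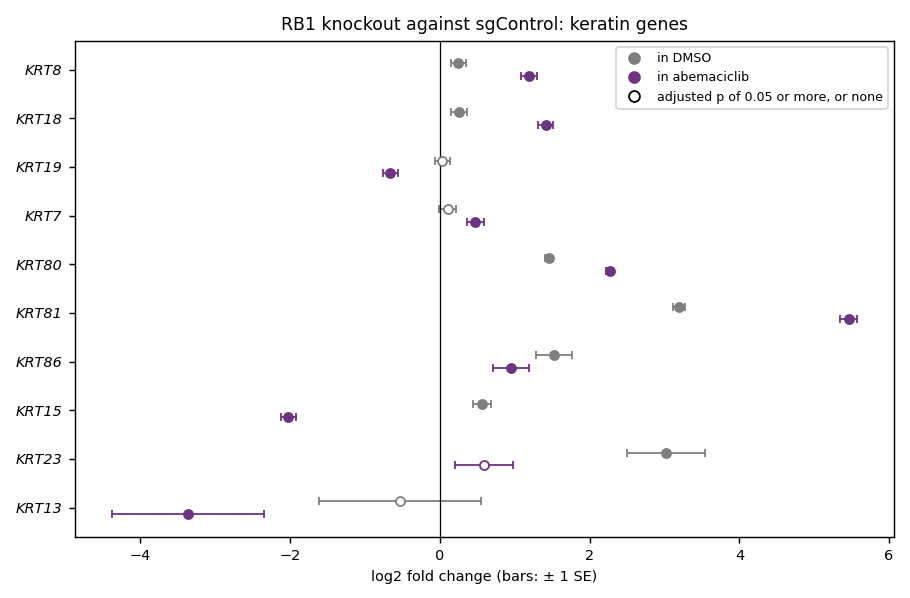
Log2 fold change of *RB1* knockout against sgControl for the 10 keratin genes in DMSO (grey) and abemaciclib (purple), with 1 SE on each side; open points did not pass the threshold or had no adjusted p-value. *KRT80*, *KRT81* and *KRT86* are above 0 in both treatments, whereas *KRT15* is at 0.57 in DMSO and −2.03 in abemaciclib.

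The genes around the main loci were compared between the clones as well. Within 5 Mb of *KRT8*, the 153 genes other than keratins whose mean normalized count reached 100 had a median log2 difference between genotypes of −0.003 in DMSO and −0.02 in abemaciclib. The 134 such genes around *KRT19* had medians of 0.04 and −0.09. All 11885 genes at this level had a median of −0.02 in both treatments, so the neighbourhoods of the keratin loci lay close to the median gene.

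Reads that the counting assigned to pseudogenes were few. The 51 rows named as *KRT8* pseudogenes held 0.566% to 0.671% of the counts of *KRT8* and its copies together, most of them in *KRT8P3*. For *KRT18* the 67 pseudogene rows held 0.0388% to 0.0654%, and for *KRT19* 5 rows held 0.00836% to 0.0132%. Adding these counts to the parent genes turned no direction and ended 1 call, that of *KRT8* between genotypes in DMSO (adjusted p = 0.0566).

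Of the 44 keratin genes outside the 10, 18 had no count in any library, 39 had a mean normalized count under 20 and only *KRT10* exceeded 100. *KRT10*, the type I keratin of differentiated epidermis, had means of 2699.5 ± 419.6 (SD, n = 3) in sgControl cells in DMSO, 2420.7 ± 85.3 in abemaciclib, and 2389.7 ± 66.7 and 1958.3 ± 7.7 in the knockout. It did not pass in sgControl cells (−0.16 ± 0.09 SE, DESeq2 adjusted p = 0.149), fell in the knockout (−0.29 ± 0.09, adjusted p = 0.00887) and was lower in the knockout in abemaciclib (−0.31 ± 0.09, adjusted p = 0.00207). The fall in the knockout did not pass without replicate 2 of the knockout in DMSO.

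Among these 44 genes, 16 had an adjusted p-value in sgControl cells, of which 1 rose and 3 fell with abemaciclib, against 49.8% of all genes called. They are named here after their values were seen. *KRT17*, a basal and stress-associated type I keratin, had 31, 25 and 47 counts in sgControl cells given DMSO and 1, 2 and 2 in abemaciclib. *KRT16*, a type I keratin of activated squamous epithelium, had 11, 13 and 16 and then 1, 1 and 6. *KRT83*, a type II hair keratin, had 147, 98 and 127 and then 27, 38 and 34, whereas *KRT32*, a type I hair keratin, had 7, 6 and 17 and then 62, 94 and 79. None of these treatment groups overlapped, and neither did those of 55.8% of all genes tested. The DESeq2 log2 fold changes were −4.11 ± 0.69 (SE), −2.08 ± 0.59, −1.70 ± 0.26 and 3.24 ± 0.39, with adjusted p-values of 9.74e-09, 0.00108, 1.71e-10 and 3.73e-16, for *KRT17*, *KRT16*, *KRT83* and *KRT32* in this order. In the knockout these 4 genes did not pass. Of 11 other keratins tested for the interaction, it was higher for 3 and lower for 1, against 41.4% of all genes called. Those called were these same 4 genes, which had been picked by their calls in sgControl cells. In DMSO 3 of the 6 tested were higher in the knockout, *KRT16* (3.55 ± 0.30), *KRT17* (2.18 ± 0.25) and *KRT32* (1.05 ± 0.44, adjusted p = 0.0464). There *KRT83* did not pass (−0.04 ± 0.23, DESeq2 adjusted p = 0.924). In abemaciclib *KRT16*, *KRT17* and *KRT83* were higher and *KRT32* and *KRT10* lower, of 13 tested. The background was 37.4% of genes called in DMSO and 55.9% in abemaciclib. The list's median difference was 0.92 in abemaciclib over 13 tested genes, beside 0.02 over all genes. Of these 13 genes 8 were not called. With 39 of the 44 genes under a mean normalized count of 20, most of the 13 had few reads, which limits this median.

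Keratin filaments are anchored at desmosomes and hemidesmosomes through linker proteins, and 23 such genes were counted. In this and the following lists *CD151*, *JUP*, *PKP3*, *DSP*, *PKP2*, *IVL*, *CDSN*, *TGM1*, *CALML5*, *SPRR3*, *BFSP1*, *BFSP2* and *SYNC* were named after their values were seen. In sgControl cells 6 rose and 9 fell of 20 tested (median log2 fold change −0.23, all genes 0.01), against 49.8% of all genes called. *DSC2* and *DSG2*, which encode desmosomal cadherins, fell by 1.53 and 0.99 on the log2 scale, and *COL17A1*, a hemidesmosomal collagen, fell by 1.63. The cytoplasmic linkers *EVPL*, *PLEC* and *EPPK1* rose, by 0.77 ± 0.08 (SE), 0.71 ± 0.13 and 0.58 ± 0.13. In the same list *JUP* and *PKP3* also rose, by 0.35 and 0.32, whereas *DSP* and *PKP2* fell, with log2 fold changes of −0.27 and −0.57. In the knockout 8 of 19 rose, against 14.9% of all genes, and none fell (median 0.19, all genes 0.02), with *DSC2* at 0.52 ± 0.08 and *DSG2* at 0.44 ± 0.09. The interaction was called for 14 of 20, higher for 9 (21.1% of all genes) and lower for 5 (20.3%), and was 2.05 ± 0.12 for *DSC2* (DESeq2 adjusted p = 3.69e-62) and 1.43 ± 0.13 for *DSG2* (adjusted p = 2.44e-28). In DMSO 14 of 19 were higher in the knockout, against 19.2% of all genes, and 1 lower, *CD151*. In abemaciclib 13 of 20 were higher, against 28.5%, and the 3 lower ones were *JUP*, *PKP3* and *CD151*. *COL17A1* had mean normalized counts of 73.1 and 23.7 in sgControl cells and 597 and 664 in the knockout, in DMSO and abemaciclib.

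Squamous differentiation genes, which build the cornified envelope or accompany it, were mostly low. Of 11 tested in sgControl cells, *IVL*, *CDSN* and *CNFN* rose and *TGM1*, *SFN* and *CALML5* fell (median −0.86, all genes 0.01), against 49.8% of all genes called. *SFN*, which encodes 14-3-3σ and is the most abundant of them, had mean normalized counts of 8555 and 2328 in sgControl cells and 13889 and 15770 in the knockout, in DMSO and abemaciclib. Its response was −1.88 ± 0.10 (SE, DESeq2 adjusted p = 2.93e-85) in sgControl cells and 0.18 ± 0.09 (adjusted p = 0.133) in the knockout. *SPRR3* alone was called in the knockout, where it rose by 1.70 ± 0.19 (adjusted p = 1.75e-17), and other settings called up to 5 genes there. The background was 30.0% of all genes. In DMSO 7 of 9 were higher in the knockout, against 19.2% of all genes, and none lower. In abemaciclib 8 of 11 were higher, against 28.5%, and *CDSN* and *CNFN* were lower.

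Of 13 genes for other intermediate filament proteins, 8 were tested in sgControl cells, where *PRPH*, *NES*, *SYNM* and *BFSP2* fell and none rose (median −1.15, all genes 0.01), against 24.8% of all genes lower. *PRPH*, which encodes the neuronal filament protein peripherin, had a log2 fold change of −1.80 ± 0.13 (SE, DESeq2 adjusted p = 2.09e-43), *NES*, which encodes nestin, −1.31 ± 0.14 (adjusted p = 6.18e-20) and *SYNM*, which encodes synemin, −0.99 ± 0.11 (adjusted p = 2.17e-17). In the knockout *PRPH* rose by 0.74 ± 0.12 and *SYNC*, which encodes syncoilin, fell by 0.35 on the log2 scale, of 5 tested and against 30.0% of all genes called. The interaction was higher for *PRPH*, *NES*, *SYNM* and *BFSP2*, against 21.1% of all genes, and lower for none of 8. In DMSO *SYNM* and *BFSP1* were higher in the knockout and *PRPH*, *NES* and *SYNC* lower, of 5 tested and against 37.4% of all genes called, and in abemaciclib 5 of 8 were higher and *SYNC* lower, against 55.9%. As for *KRT8* and *KRT18*, the response of *PRPH* was called with opposite sign in the 2 genotypes.

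The genes whose log2 levels were most like those of the 3 main keratins were sought among 11872 genes, keratins apart, whose mean normalized count reached 100, by Pearson correlation over the 12 libraries. For *KRT8* they were *SLC25A6* (0.996), *APLP1* (0.993) and *NXPH4* (0.989). For *KRT18* they were *APLP1* (0.996), *NXPH4* (0.993) and *UNC93B1* (0.992), and for *KRT19* *PLIN3* (0.998), *ATP6V0E2* (0.996) and *ZNF622* (0.988). The points are 4 groups of 3 libraries, so these values describe patterns over groups. Among the keratins themselves *KRT8* had correlations of 0.898 with *KRT80*, 0.872 with *KRT81*, 0.618 with *KRT7*, −0.506 with *KRT15* and −0.700 with *KRT19*, and *KRT19* had one of 0.767 with *KRT15*.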

How the data were processed

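RNA sequencing counts of 12 ZR-75-1 libraries were analysed. Per the labels and the study's methods, the authors trimmed reads with BBDuk, aligned them to hg38 with STAR 2.7.5b, counted them per gene with featureCounts 2.0.1 against a GENCODE annotation and deposited the raw counts. The handling of strand and of reads with several positions is not given in the sources used here, and these name different library kits. Of 60656 rows, the 44 named NA held 0% of the counts and were left out.

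DESeq2 1.42.0 in R 4.3.3 was fitted to all named rows and all 12 libraries with 1 term for the 4 groups. Size factors were medians of ratios, and log2 fold changes were not shrunken. Two-sided Wald tests of 5 contrasts were adjusted by the Benjamini–Hochberg method after independent filtering, with a threshold of 0.05. The fits were tested on simulated counts first. Ratios between genes used counts per kb of merged exons (GENCODE release 44, GRCh38) and exact two-sided permutation tests, adjusted over 6 ratios. Likeness was the Pearson correlation of log2 (normalized count + 1). Alternatives were edgeR 4.0.16 (quasi-likelihood, TMM), total-count scaling, a minimum of 10 counts in 3 libraries, no independent filtering, only the groups compared, the replicate number as a block, each library left out, pseudogene counts added, the longest transcript as length and, added later, no division by length.

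Text names the 10 keratins, *RB1*, other keratins whose mean normalized count reached 100, up to 3 genes per direction and list with a call in sgControl cells and such a mean, and the 3 genes most like *KRT8*, *KRT18* and *KRT19*. The keratins, lists and alternatives were chosen with earlier results of these data known. The series' own text calls the replicates biological, and no label gives the meaning of a shared replicate number. Same-numbered libraries deviated together in every pair only between genotypes in abemaciclib (correlations 0.150, 0.259 and 0.112), and there the block changed no call of the 10 genes. Promoter sequences and 1 marker gene are not reported here. Values were limited by 39907318 to 81636393 counts per library, and intervals are those of the model.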

Additional observations from a re-analysis of the deposited data

Results flagged for a closer look

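For 7 of the 10 keratin genes the response to abemaciclib differed between sgControl and *RB1*-knockout cells by the interaction test of DESeq2. On the log2 scale, knockout minus sgControl, the differences were 0.95 for *KRT8*, 1.15 for *KRT18*, 0.81 for *KRT80*, 2.26 for *KRT81*, −0.69 for *KRT19*, −2.59 for *KRT15* and −2.43 for *KRT23*. Each was called in all 12 fits that left out 1 library. The *KRT23* value rests on 2 to 9 counts per library in sgControl cells in DMSO.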

How the results depend on the processing

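Depth limits *KRT13* and *KRT23*, with at most 43 counts in any library, and the split of reads between *KRT81* and *KRT86* limits the latter. Of the alternative values for single genes, 883 stayed in direction and on their side of the threshold, 38 lost and 11 gained a call, and 8 changed sign, none of them called. The sign changes were *KRT23* in the knockout response (−0.0327 without replicate 3 in abemaciclib, values ranging from −0.0327 to 0.44 over the libraries left out), *KRT13* in the same response (0.06 without replicate 1 in DMSO, 0.02 and 0.39 without replicates 1 and 2 in abemaciclib, range −1.87 to 0.39), and, between genotypes in DMSO, *KRT7* (−0.0021 without sgControl replicate 3, range −0.0021 to 0.25), *KRT13* (0.76 without sgControl replicate 1, range −1.19 to 0.76) and *KRT19* (−0.0827 without sgControl replicate 3 and −0.0107 without knockout replicate 2, range −0.0827 to 0.17). The count of the 10 genes called ranged over all alternatives from 8 to 9 in sgControl cells, 5 to 7 in the knockout, 7 to 9 for the difference and 5 to 9 between genotypes in DMSO, and was 9 throughout in abemaciclib.

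In the knockout response the squamous list had 3 calls with edgeR, 2 with total-count scaling, 3 with the count minimum, 5 with only the groups compared and 1 to 3 with 1 library left out. With 1 library left out the other keratins had 0 to 1 and the other filament genes 1 to 2 calls. With the longest transcript as length, the log2 ratio of type I to type II genes differed by −0.25 in the knockout response and by −0.22 between genotypes in DMSO. Without division by length it differed by 0.86 and −0.22 in the responses of sgControl and knockout cells, and by −0.19 and −1.27 between genotypes in DMSO and abemaciclib. With the longest transcript, the shares in sgControl cells in DMSO were 0.174% for *KRT7*, 32.1% for *KRT8*, 17.5% for *KRT18*, 49.7% for *KRT19*, 0.243% for *KRT80*, 0.209% for *KRT81* and 0.00726% for *KRT86*. These moves follow from the lengths and, for the others, the cause was not tested. Total-count scaling moved the median gene to −0.12 in the sgControl response, 0.16 for the difference and 0.14 between genotypes in abemaciclib, and turned the direction of none of the 10 genes.

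With the replicate number as a block, the calls of the 10 genes numbered 9, 6, 8, 7 and 9 in the 5 comparisons. *KRT7* alone changed its call (0.36 for the difference, adjusted p = 0.0430 in DESeq2). Outside the comparison of genotypes in abemaciclib, correlations of same-numbered libraries were 0.245, 0.223 and −0.076 in sgControl cells, −0.023, −0.073 and 0.018 in the knockout and −0.25, −0.013 and 0.08 in DMSO.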
